A study of Mus musculus with 16 samples.

Results

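The genes described here are 7 members of the natriuretic peptide and cyclic GMP pathway of the mouse uterus: the C-type natriuretic peptide gene Nppc, the receptor genes Npr1, Npr2 and Npr3, the orphan receptor guanylyl cyclase gene Gucy2g, the cyclic GMP-dependent protein kinase gene Prkg1 and the phosphodiesterase gene Pde5a. They were taken by gene symbol from a table of 31274 features, and all 7 were found. Whole uteri were profiled by RNA-seq, and levels are given as FPKM, fragments normalised to transcript length and to the depth of the library. The 4 groups, with 4 libraries each labelled as biological replicates, were PgrcrePgrBLsL/+ mice (PRB here) given progesterone (P4) for 6 h, PgrcrePgrBLsL/+ mice given oil for 6 h, PgrcrePgrALsL/+ mice (PRA here) given P4 for 6 h and PgrcrePgrALsL/+ mice given oil for 6 h. All mice had been ovariectomized for 2 weeks and were housed until 8 weeks of age, per the labels. Every mouse carried a Pgr-Cre driver, which is active in cells that express the progesterone receptor gene, and a Cre-activated transgene for isoform A or B of that receptor. No strain without a transgene is among the groups, so the oil group of each strain stands as the background for its own P4 group. A treatment field of the labels speaks instead of mated females on day 4 of pregnancy, and the groups here follow the titles, characteristics and series design.

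As background, natriuretic peptides act through receptors that are themselves enzymes. The receptor products of Npr1 and Npr2 carry a guanylyl cyclase inside the cell and make cyclic GMP when a peptide binds, Npr1 mainly for the atrial and B-type peptides and Npr2 for the C-type peptide. The product of Npr3 has no cyclase and is known for clearing the peptides from the cell surface. Cyclic GMP switches on the kinase encoded by Prkg1, which relaxes smooth muscle, and the enzyme encoded by Pde5a breaks cyclic GMP down. Gucy2g has the layout of a receptor cyclase, is known in the mouse mainly from the testis and the Grueneberg ganglion of the nose, and is a pseudogene in human.

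The strongest strain difference lay in Nppc and the strongest response to P4 in Gucy2g, so the promoter windows of these genes are shown, from 250 bases before to 50 bases after the annotated start (RefSeq, GRCm38.p6, minus strand of the chromosome, written 5′ to 3′ along the gene). Capitals mark matches, on either strand, to the letters searched: the hormone response element core ACANNNTGT, the single arm TGTTCT of that element, the TATA box TATAAA, the CCAAT box CCAAT, the GC box GGGCGG and the cyclic AMP response element TGACGTCA.
Nppc, chr1:86670524-86670823: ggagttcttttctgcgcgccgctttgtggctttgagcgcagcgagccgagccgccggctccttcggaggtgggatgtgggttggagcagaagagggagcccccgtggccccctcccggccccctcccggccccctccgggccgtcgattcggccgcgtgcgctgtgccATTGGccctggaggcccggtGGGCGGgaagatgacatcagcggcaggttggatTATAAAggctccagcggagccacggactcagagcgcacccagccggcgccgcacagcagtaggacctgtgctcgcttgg
Gucy2g, first start, chr19:55241203-55241502: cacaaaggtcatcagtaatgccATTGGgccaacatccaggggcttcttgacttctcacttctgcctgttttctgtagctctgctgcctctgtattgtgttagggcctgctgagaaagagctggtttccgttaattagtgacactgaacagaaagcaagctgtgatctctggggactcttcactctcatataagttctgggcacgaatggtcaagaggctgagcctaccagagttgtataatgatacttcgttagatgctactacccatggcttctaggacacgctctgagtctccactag
Gucy2g, second start, chr19:55217523-55217822: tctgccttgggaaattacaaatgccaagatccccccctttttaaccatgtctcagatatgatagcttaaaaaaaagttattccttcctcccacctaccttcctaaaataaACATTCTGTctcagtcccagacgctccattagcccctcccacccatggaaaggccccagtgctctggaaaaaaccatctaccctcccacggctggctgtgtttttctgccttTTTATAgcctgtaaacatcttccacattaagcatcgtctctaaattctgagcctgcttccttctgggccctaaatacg
The Nppc window holds a TATAAA that begins at position -29 from the start, a GGGCGG at -62 and a reverse CCAAT box at -82. Neither the hormone response element core nor TGTTCT occurs in that window on either strand. RefSeq lists 2 starts for Gucy2g, the second of them inside the gene. The upstream window holds only a reverse CCAAT box at -228, whereas the inner window holds ACATTCTGT, a match to the hormone response element core, at -140 and a reverse TATA box at -28. Over all 32851 promoter windows of the same length, 6.85% held the core, 19.0% the arm TGTTCT, 13.6% the TATA box, 37.4% the CCAAT box, 35.7% the GC box and 1.79% the cyclic AMP response element. Of the 9 windows listed for the 7 genes, the only other one with the core was that of Npr3, as ACAGCCTGT at position 39 counted from the start, and it also held AGAACA, a reverse match to that arm, at -31. These matches describe the letters only.

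The genes lie apart in the genome (GRCm38, the same build as mm10). Nppc spans chr1:86666291-86670571, Npr1 chr3:90450591-90465866, Pde5a chr3:122728947-122859374, Npr2 chr4:43631935-43651244, Npr3 chr15:11839896-11907287, Prkg1 chr19:30564489-31765033 and Gucy2g chr19:55198099-55241236. Exons of Npr1, Npr2, Npr3 and Pde5a overlap exons of a non-coding gene on the other strand, over 559 bases with Gm16048, 266 with Gm12473, 321 with Gm5144 and 55 with 4930447N08Rik. Whether the counting used strand is not given in the sources used here, so reads from these stretches cannot be told apart. Of these partners, 4930447N08Rik has a row in the table and averaged 0.00871, 0.0146, 0.00384 and 0.0144 FPKM in PRB P4, PRB oil, PRA P4 and PRA oil uteri.

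The P4 libraries had a total of 572846 to 595748 FPKM and the oil libraries of 499748 to 528785 FPKM. Totals were thus higher in every P4 library than in any oil library. The spacing of the lowest values implies a depth of about 52.8 to 67.5 M fragments per library, at which Nppc rests on about 19 to 310 fragments per library and Gucy2g on about 85 to 4000. The depth was sought only within a preset range and could not fall outside it, so these figures are rough. The transgene target Pgr averaged 112 ± 22.3 FPKM in PRB P4, 83.5 ± 4.49 in PRB oil, 73.9 ± 1.80 in PRA P4 and 64.9 ± 5.52 in PRA oil uteri (SD, n = 4 each), and the table does not separate its isoforms or the transgene. Under each treatment, every PRB library had more Pgr than every PRA library. With P4 the difference was 0.57 on the log2(FPKM + 1) scale (limma adjusted p = 0.00575), called in all 24 alternative analyses. With oil it was 0.36 (limma adjusted p = 0.588), called only without PRB P4 replicate 3. The strains thus differ in isoform and, with P4, in the level of Pgr RNA, and the part of that level in strain differences was not tested. 1 library, PRB P4 replicate 3, stood apart on the second principal component of the libraries (8.31% of the variance) and had 78.5 FPKM of Pgr, against 121 to 126 in the other PRB P4 libraries. For the genes described here, P4 changes in PRB uteri and strain differences with P4 in the text are also given without it. Of their differences of the P4 responses between the strains, only that of Nppc is given without it. For the other pathway genes, counts of calls and the calls lost or gained are given without it. Marker results, receptor shares, group means and nearest genes are given with all libraries only, and were not checked without it. Markers of epithelium, stroma, smooth muscle and endothelium were present in all groups. In whole tissue, fewer cells of a type and less RNA per cell cannot be told apart. The run names in the labels carry the letter B for all PRB and A for all PRA libraries, with oil and then P4 libraries in turn after each letter. The labels do not say what these letters stand for, and whatever they mark cannot be told apart from the groups.

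With P4, 5 of the 7 genes changed in PRB uteri and all 7 in PRA uteri. In PRB uteri Npr1, Npr2, Npr3, Gucy2g and Pde5a fell and none rose, and in PRA uteri Nppc rose and the other 6 genes fell, by limma on log2(FPKM + 1) over the 15408 features that averaged 1 FPKM or more, with a Benjamini-Hochberg adjusted p under 0.05 as the threshold. The background of these counts was high. In PRB uteri 69.1% of all features tested passed (36.2% higher and 32.9% lower), and in PRA uteri 69.8% passed (36.6% higher and 33.2% lower). The median log2 difference of the 7 genes was -0.63 in PRB uteri, where it was 0 over all features tested, and -1.01 in PRA uteri, where it was 0.01 over all features. Both counts of genes were the same in all 24 alternative analyses. Without PRB P4 replicate 3 the 5 genes fell in PRB uteri by 0.53 (Npr1), 0.55 (Npr2), 1.14 (Npr3), 2.42 (Gucy2g) and 1.34 (Pde5a), with limma adjusted p of at most 0.00390.

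**Figure D1:**
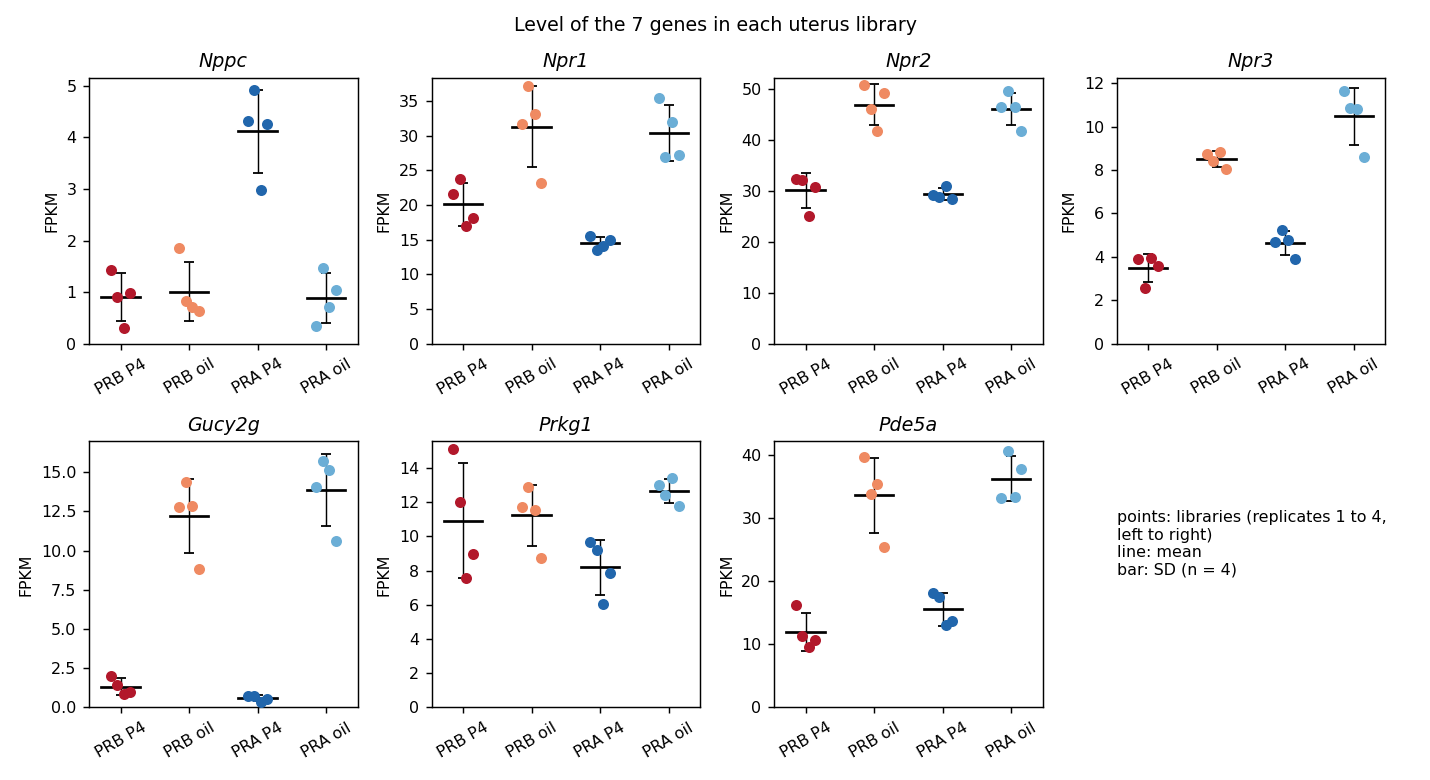
FPKM of each of the 7 genes in every uterus library (y axis, linear, from 0), with PRB P4, PRB oil, PRA P4 and PRA oil groups along the x axis, points for libraries, a line at the mean and a bar for the SD (n = 4). Nppc is high only in the PRA P4 group (2.98 to 4.91 FPKM), and Gucy2g is low in both P4 groups.

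Nppc, the ligand of the group, had 1.43, 0.911, 0.306 and 0.974 FPKM in the 4 PRB P4 libraries (replicates 1 to 4 in turn, here and in the values that follow), against 1.85, 0.826, 0.715 and 0.626 FPKM in the PRB oil libraries. It had 4.31, 4.91, 2.98 and 4.25 FPKM in the PRA P4 libraries, against 0.338, 1.46, 0.711 and 1.04 FPKM in the PRA oil libraries. Every PRA P4 library was above every library of the other 3 groups, which overlapped one another.
The group means were 0.904 ± 0.460 FPKM in PRB P4, 1.01 ± 0.572 in PRB oil, 4.11 ± 0.812 in PRA P4 and 0.887 ± 0.477 in PRA oil uteri (SD, n = 4 each). In PRA uteri Nppc rose by 1.46 on the log2(FPKM + 1) scale (SE 0.23, limma adjusted p = 5.08e-05), a ratio of means of 4.64. That scale understates changes at low levels, and with a pseudocount of 0.1 the difference was 2.22. In PRB uteri the difference was -0.07 (SE 0.23, 95% interval -0.57 to 0.42, limma adjusted p = 0.800), and 0.10 without PRB P4 replicate 3.

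The P4 responses of Nppc differed between the strains. The difference, PRB minus PRA, was -1.53 (SE 0.33, 95% interval -2.23 to -0.83, limma adjusted p = 0.0273), and Nppc was the only one of the 7 genes to pass this test, which 2.28% of all features passed. By size it ranked 171st of the 15408 features. Nppc met the filter of 1 FPKM through the PRA P4 group, where it averaged 4.11 FPKM. It averaged 0.904 FPKM in PRB P4, 1.01 in PRB oil and 0.887 in PRA oil uteri. Its place among the features tested thus rests on the same libraries as the difference. The call was lost with a pseudocount of 0.1 (-2.39, limma adjusted p = 0.0666) and without any 1 of 5 libraries, with adjusted p = 0.0539 without PRB P4 replicate 2, 0.0590 without PRA P4 replicate 2, 0.0618 without PRA P4 replicate 4, 0.0564 without replicate 1 of the PRA oil group and 0.0622 without replicate 3 of that group. Over the 23 alternatives the difference ranged from -2.39 to -1.35 and the adjusted p from 0.0231 to 0.0666. Without PRB P4 replicate 3 the difference was -1.36 (limma adjusted p = 0.0336).
With P4, PRB uteri had less Nppc than PRA uteri, a log2 difference of -1.44 (SE 0.23, limma adjusted p = 0.00123), and this call held in all 24 alternatives (-1.27 without PRB P4 replicate 3, limma adjusted p = 0.00263). With oil, the difference between PRB and PRA uteri was 0.09 (95% interval -0.41 to 0.58, limma adjusted p = 1). The comparisons of P4 with oil in PRA and of PRB with PRA under P4 share the PRA P4 libraries.

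**Figure D2:**
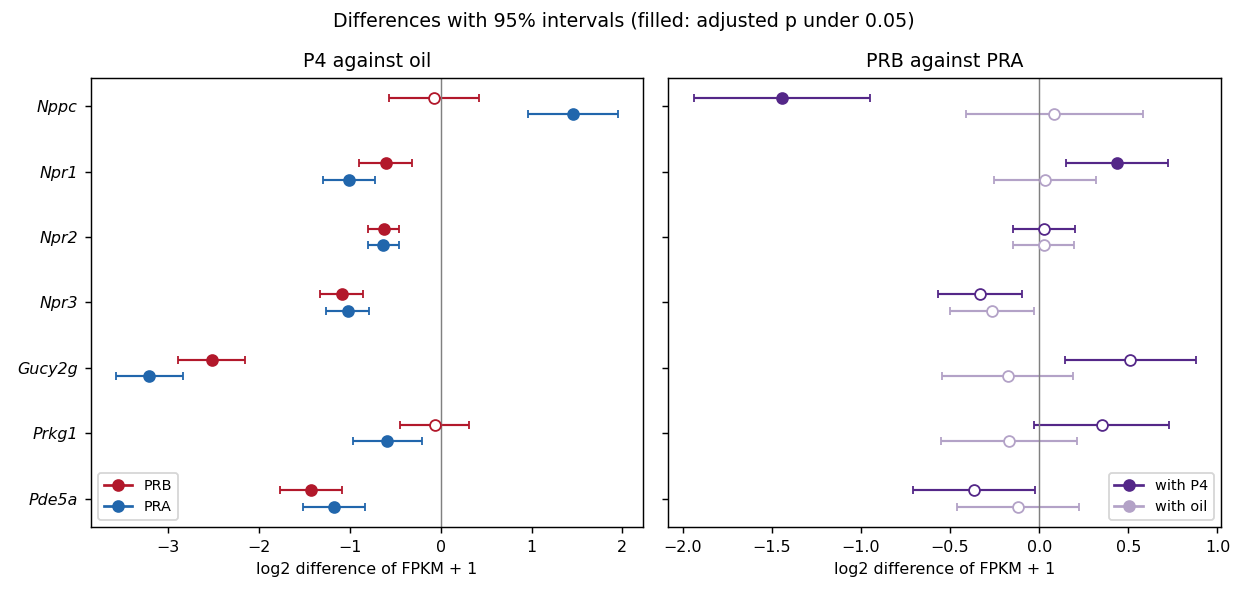
Log2 differences of FPKM + 1 with 95% intervals for the 7 genes, P4 minus oil in PRB and PRA uteri on the left and PRB minus PRA with P4 or oil on the right, with filled points where the adjusted p was under 0.05. Nppc lies at -0.07 in PRB and 1.46 in PRA uteri on the left, and the other 6 genes lie at or below -0.07.

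Among the receptors, Npr2, the cyclase receptor of the C-type peptide, had the highest level of the 7 genes in all groups. It had 32.2, 32.2, 25.0 and 30.7 FPKM in the PRB P4 libraries, against 50.7, 45.9, 41.7 and 49.2 FPKM in the PRB oil libraries. The PRA P4 libraries had 29.2, 28.7, 31.0 and 28.5 FPKM, against 46.5, 49.4, 46.4 and 41.8 FPKM in the PRA oil libraries. Every P4 library was below every oil library, and the strains overlapped under each treatment. Npr2 fell by 0.63 on the log2(FPKM + 1) scale in PRB uteri (SE 0.08, limma adjusted p = 6.45e-06) and by 0.63 in PRA uteri (SE 0.08, limma adjusted p = 6.14e-06). The difference of the responses was 0.00, with a 95% interval of -0.24 to 0.25.

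Npr3, the clearance receptor, had 3.93, 2.58, 3.96 and 3.56 FPKM in the PRB P4 libraries, against 8.72, 8.42, 8.85 and 8.06 FPKM in the PRB oil libraries. In PRA uteri it had 4.69, 5.26, 4.76 and 3.90 FPKM with P4, against 11.7, 10.9, 10.8 and 8.61 FPKM with oil. P4 and oil libraries did not overlap in either strain. Npr3 fell by 1.09 in PRB (SE 0.11, limma adjusted p = 5.70e-07) and by 1.02 in PRA uteri (SE 0.11, limma adjusted p = 1.11e-06). With P4 the level in PRB relative to PRA uteri differed by -0.33 (SE 0.11, 95% interval -0.57 to -0.10), just outside the threshold at a limma adjusted p of 0.0537, and it passed in 6 of 24 alternatives, among them a pseudocount of 0.1 and the fits without PRB P4 replicate 1, PRB P4 replicate 3 (-0.38, limma adjusted p = 0.0391), PRA P4 replicate 4 or PRA oil replicate 4.

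Npr1, the cyclase receptor of the atrial and B-type peptides, had 21.6, 23.8, 17.0 and 18.2 FPKM in the PRB P4 libraries, against 31.7, 37.2, 33.2 and 23.2 FPKM in the PRB oil libraries. The PRA P4 libraries had 15.6, 13.5, 14.1 and 14.9 FPKM, against 35.5, 27.0, 32.0 and 27.2 FPKM in the PRA oil libraries. P4 and oil libraries were apart in PRA uteri, whereas in PRB uteri the highest P4 library lay just above the lowest oil library.
Npr1 fell by 0.61 in PRB (SE 0.13, limma adjusted p = 0.000973) and by 1.01 in PRA uteri (SE 0.13, limma adjusted p = 9.30e-06). The difference of the responses, 0.40 (95% interval -0.0033 to 0.81), did not pass (limma adjusted p = 0.308). With P4, Npr1 was higher in PRB than in PRA uteri in every library, by 0.44 (SE 0.13, limma adjusted p = 0.0409), and it and Nppc were the only 2 of the 7 genes called in that comparison, in which 16% of all features passed. This call was lost in 10 of 24 alternatives, with adjusted p up to 0.118 over all 24. It was lost without a filter, with quantile normalization, and without any 1 of PRA oil replicate 3, PRA P4 replicates 1 to 4, PRB oil replicate 1 and PRB P4 replicates 1 and 2. Without PRB P4 replicate 3 it stood at 0.51 (limma adjusted p = 0.0259).

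Some endothelial markers also differed in this comparison, in which 16% of all features passed. Of 8 markers, 4 were higher in PRB P4 than in PRA P4 uteri (Pecam1, Tek, Tie1 and Cldn5). The other 4 did not pass (Cdh5, Kdr, Emcn and Vwf). In PRB uteri, where Npr1 fell by 0.61 with P4, 1 of the 8 markers was lower with P4 and 7 did not pass. In PRA uteri 4 of the 8 markers were lower with P4 and 4 did not pass. Over all features tested, 32.9% were lower with P4 in PRB and 33.2% in PRA uteri. Their summed level lay at 233 to 246 FPKM in PRB P4, 271 to 299 in PRB oil, 164 to 206 in PRA P4 and 248 to 313 in PRA oil uteri, and no marker was at 0 in all libraries. Their part in the Npr1 result was not tested.

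The 3 receptors together had 53.7 ± 5.79 FPKM in PRB P4, 86.7 ± 5.46 in PRB oil, 48.5 ± 1.31 in PRA P4 and 86.9 ± 6.77 in PRA oil uteri. Within that sum the share of Npr3 was 6.80%, 4.41%, 8.62% and 6.78% in the PRB P4 libraries, against 9.57%, 9.20%, 10.6% and 10.0% in the PRB oil libraries. It was 9.48%, 11.1%, 9.56% and 8.25% in the PRA P4 libraries, against 12.5%, 12.4%, 12.1% and 11.1% in the PRA oil libraries. The share of the clearance receptor was thus lower with P4 in both strains, and in PRA uteri the highest P4 library lay barely below the lowest oil library. Npr2 made up 56.0 ± 1.82% in PRB P4, 54.2 ± 5.35% in PRB oil, 60.5 ± 1.29% in PRA P4 and 53.0 ± 2.96% in PRA oil uteri. These shares are a description and were not tested.

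**Figure D3:**
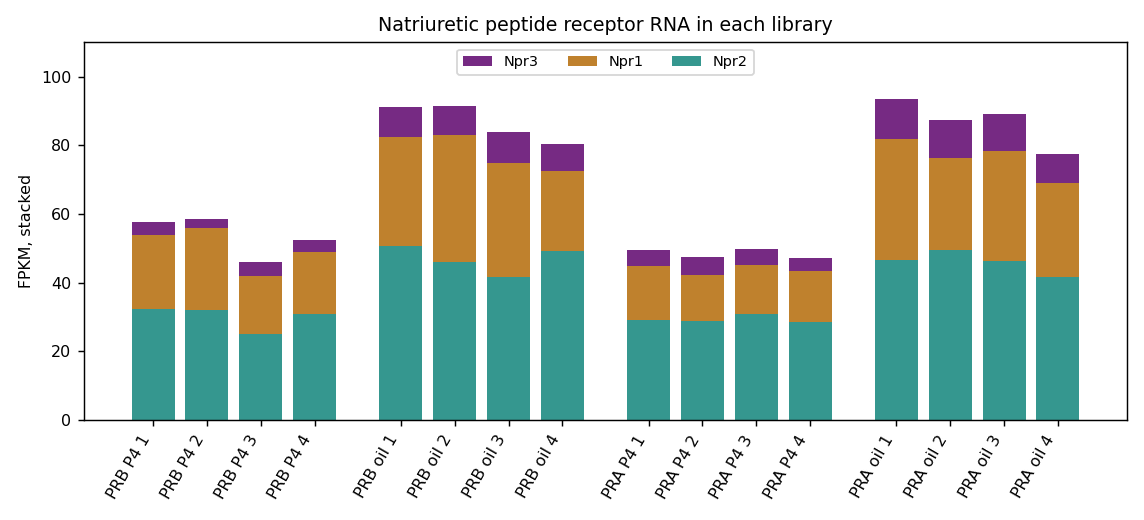
Stacked FPKM of Npr2, Npr1 and Npr3 (y axis, linear, from 0) in each of the 16 libraries, ordered PRB P4, PRB oil, PRA P4 and PRA oil along the x axis. All P4 libraries reach 46.0 to 58.5 FPKM in sum, below all oil libraries at 77.6 to 93.6 FPKM.

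Gucy2g had 2.03, 1.40, 0.840 and 0.993 FPKM in the PRB P4 libraries, against 12.8, 14.4, 12.8 and 8.84 FPKM in the PRB oil libraries. In PRA uteri it had 0.729, 0.743, 0.368 and 0.571 FPKM with P4, against 14.0, 15.7, 15.2 and 10.6 FPKM with oil. The gap between P4 and oil was wide in both strains, and with P4 every PRB library was above every PRA library.
The ratio of the oil mean to the P4 mean was 9.27 in PRB and 23.0 in PRA uteri. On the log2(FPKM + 1) scale Gucy2g fell by 2.52 in PRB (SE 0.17, limma adjusted p = 1.03e-08), the 52nd lowest of 15408 features, and by 3.21 in PRA uteri (SE 0.17, limma adjusted p = 1.31e-09), the 15th lowest. The difference of the responses was 0.69 (SE 0.24, 95% interval 0.17 to 1.21) and did not pass (limma adjusted p = 0.165). With P4 the difference of PRB from PRA uteri, 0.51 (SE 0.17), lay just outside the threshold (limma adjusted p = 0.0569) and passed in 7 of 24 alternatives, among them pseudocounts of 0.1 and 0.5, quantile normalization and the fits without PRB P4 replicate 3 (0.61, limma adjusted p = 0.0314), PRB oil replicate 4 or PRA oil replicate 4.

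Prkg1, the kinase that cyclic GMP activates, had 15.1, 12.0, 7.56 and 9.00 FPKM in the PRB P4 libraries, against 11.7, 12.9, 11.6 and 8.74 FPKM in the PRB oil libraries. In the PRA P4 libraries it had 9.65, 9.22, 6.06 and 7.86 FPKM, against 13.0, 12.4, 13.4 and 11.8 FPKM in the PRA oil libraries. The groups overlapped in PRB and were apart in PRA uteri. Prkg1 fell by 0.59 in PRA uteri (SE 0.18, limma adjusted p = 0.00848). Its difference in PRB uteri was -0.07 (95% interval -0.45 to 0.31, limma adjusted p = 0.751), and 0.08 without PRB P4 replicate 3. The responses were not shown to differ, since the difference of 0.52 had a 95% interval of -0.02 to 1.06 (limma adjusted p = 0.323). With P4 the difference of PRB from PRA uteri was 0.35 (limma adjusted p = 0.198), and 0.50 without PRB P4 replicate 3 (limma adjusted p = 0.0584).

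Pde5a, the cyclic GMP-specific phosphodiesterase blocked by sildenafil, had 16.3, 11.3, 9.58 and 10.7 FPKM in the PRB P4 libraries, against 39.7, 33.8, 35.5 and 25.5 FPKM in the PRB oil libraries. In PRA uteri it had 18.1, 17.4, 13.0 and 13.7 FPKM with P4, against 33.3, 40.6, 33.4 and 37.8 FPKM with oil. All P4 libraries were below all oil libraries. The fall was 1.43 in PRB (SE 0.16, limma adjusted p = 1.55e-06) and 1.18 in PRA uteri (SE 0.16, limma adjusted p = 1.10e-05), and the difference of the responses was -0.25 (95% interval -0.73 to 0.23, limma adjusted p = 0.637). With P4 the level in PRB relative to PRA uteri differed by -0.37 (SE 0.16, limma adjusted p = 0.133), which passed only without PRB P4 replicate 1 (-0.51, limma adjusted p = 0.0306) and was -0.28 without PRB P4 replicate 3 (limma adjusted p = 0.273).

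Without P4 the strains could not be separated at any of the 7 genes. With oil, none passed between PRB and PRA uteri, where 0.117% of all features did. Before adjustment, 1 of the 7 was under 0.05 by limma, Npr3, at -0.27 (95% interval -0.50 to -0.03, limma adjusted p = 0.860).
Since FPKM is per length, the genes can be ordered by level. In both oil groups the order of means was Npr2, Pde5a, Npr1, Gucy2g, Prkg1, Npr3 and Nppc, where the libraries of Pde5a and Npr1 overlapped and so did those of Gucy2g and Prkg1. Libraries of Npr3 also overlapped those of Gucy2g in both oil groups and those of Prkg1 in PRB oil uteri. Nppc was last in both oil groups and in the PRB P4 group, and in the PRA P4 group it was above Gucy2g and its libraries overlapped those of Npr3. With P4, the mean of Gucy2g stood between those of Npr3 and Nppc in PRB uteri (1.32 ± 0.534 FPKM) and last in PRA uteri (0.603 ± 0.175 FPKM). In PRB P4 uteri the libraries of Gucy2g and Nppc overlapped.

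Markers of smooth muscle, a tissue known to express Prkg1 and Pde5a, had overlapping summed levels in all groups, at 1124 to 1886 FPKM in PRB P4, 1225 to 1597 in PRB oil, 1314 to 1811 in PRA P4 and 1336 to 1682 in PRA oil uteri. With P4, 1 of 8 such markers was higher and 2 lower in PRB uteri, and 2 were higher and 1 lower in PRA uteri. Over all features tested, 36.2% were higher and 32.9% lower in PRB uteri, and 36.6% higher and 33.2% lower in PRA uteri. The marker counts given here are to be read against these shares. Summed epithelial markers lay at 1294 to 1582 FPKM in PRB P4 and 835 to 882 in PRB oil, and at 1006 to 1273 in PRA P4 and 792 to 899 in PRA oil uteri. Of 8 epithelial markers, 4 were higher and none lower with P4 in PRB uteri, and 4 were higher and 2 lower in PRA uteri. Endothelial markers were lower with P4 for 1 of 8 in PRB and 4 of 8 in PRA uteri. Stromal markers went both ways, with 4 of 7 higher and 2 lower in each strain, among them Hand2 at a log2 difference of 1.04 in PRB and 1.04 in PRA uteri and Lum at -2.09 in PRB and -1.69 in PRA uteri.
Some markers of several other tissues were also lower with P4, to be read against the 32.9% of all features lower in PRB and 33.2% in PRA uteri. Of 5 ovary and oviduct markers 3 were tested, and 2 of them were lower in each strain. These were Inha, at a log2 difference of -1.30 in PRB and -1.61 in PRA uteri, and Foxl2. Ovgp1 did not pass in either strain. Amh missed the filter and was not tested. Its means were higher with P4, at 1.36 against 0.655 FPKM in PRB and 1.33 against 0.612 in PRA uteri. Cyp19a1 averaged at most 0.00538 FPKM in any group. The summed level of the 5 markers lay at 44.4 to 50.1 FPKM in PRB P4, 65.8 to 96.9 in PRB oil, 39.9 to 52.0 in PRA P4 and 65.4 to 87.3 in PRA oil uteri. Lymphatic markers were lower for 2 of 4 in PRB and 3 of 4 in PRA uteri (Pdpn at -1.36 in PRB and -1.29 in PRA uteri), with sums of 39.6 to 53.6 FPKM in PRB P4, 47.5 to 67.5 in PRB oil, 44.6 to 50.7 in PRA P4 and 49.1 to 75.9 in PRA oil uteri. Mesothelial markers were lower for 1 of 5 in PRB and 3 of 5 in PRA uteri. Their sums were 103 to 125 FPKM in PRB P4, 123 to 183 in PRB oil, 76.4 to 114 in PRA P4 and 141 to 156 in PRA oil uteri. Leukocyte markers were lower for 1 of 7 in PRB and 2 of 7 in PRA uteri, shares below those of all features. Leukocyte sums overlapped, at 27.7 to 63.0 FPKM in PRB P4, 34.7 to 39.3 in PRB oil, 23.9 to 28.2 in PRA P4 and 25.5 to 40.2 in PRA oil uteri. No marker of these lists was at 0 in all libraries, and their part in the changes of the 7 genes was not tested.

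The rest of the pathway was read from 55 genes in 5 lists, of which 34 had a mean of at least 1 FPKM. With P4, 12 of the 34 rose, 16 fell and 6 did not pass in PRB uteri, and 12 rose, 17 fell and 5 did not pass in PRA uteri. Over all features tested, 69.1% passed in PRB uteri (36.2% higher and 32.9% lower). In PRA uteri 69.8% passed (36.6% higher and 33.2% lower). These counts, and those of each list below, are to be read against these shares. None of the 34 passed the limma test of the difference of the responses, for which 8 were under 0.05 before adjustment, and none passed between the strains with oil, where 1 was. Between PRB and PRA uteri with P4, 4 of the 34 were higher and 1 lower, a share near the 16% of all features that passed. Without PRB P4 replicate 3, 11 rose and 14 fell in PRB uteri, with 3 of the 28 calls lost (Nppa, Pde1a and Pde6h) and the others moved by at most 0.21. Without that library the strain comparison with P4 kept the calls of Guca2b (0.65, limma adjusted p = 0.0435), Pde9a (0.62, limma adjusted p = 0.00146) and Rgs2 (0.35, limma adjusted p = 0.0381). It lost those of Pde2a (limma adjusted p = 0.0679) and Trpc6 (limma adjusted p = 0.0525), and gained Abcc4 (0.65, against 0.44 at a limma adjusted p of 0.0833 with all libraries) and Pde3b (-0.29, limma adjusted p = 0.0371).

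Among peptides and their processing, 3 of 6 genes were tested, and in each strain 2 rose and 1 fell. Mme, the protease neprilysin that degrades natriuretic peptides, averaged 61.4 ± 5.04 FPKM in PRB P4 and 29.8 ± 13.3 in PRB oil, and 82.4 ± 19.2 in PRA P4 and 30.1 ± 9.14 in PRA oil uteri (log2 difference 1.12 in PRB and 1.45 in PRA, limma adjusted p = 0.00356 and 0.000494). Furin, a convertase that cuts peptide precursors, rose by 0.37 in each strain. Nppa, the atrial peptide, fell by 0.28 in PRB and 0.31 in PRA uteri at levels of 1.42 to 2.36 FPKM in the group means, and those calls were lost in 8 of 24 alternatives in PRB (among them any 1 of PRB P4 replicates 2 to 4 or PRB oil replicates 1 to 3 left out) and 4 of 24 in PRA uteri (among them PRA P4 replicate 3, PRA P4 replicate 4 or PRA oil replicate 2 left out).

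Among other guanylyl cyclases and peptide activators, 4 of 10 genes were tested, and in each strain 1 rose and 3 fell. Guca2b, the peptide uroguanylin, averaged 6.76 ± 2.14 FPKM in PRB P4 and 0.484 ± 0.228 in PRB oil, and 3.43 ± 1.21 in PRA P4 and 0.497 ± 0.202 in PRA oil uteri. It rose by 2.36 in PRB (SE 0.21, limma adjusted p = 1.43e-07) and by 1.54 in PRA uteri (SE 0.21, limma adjusted p = 1.16e-05), and with P4 was higher in PRB than in PRA uteri by 0.81 (limma adjusted p = 0.0183), a call lost in 5 of 24 alternatives, among them those without PRA P4 replicate 2, PRA P4 replicate 4 or PRB P4 replicate 2. Guca2b met the filter through the P4 groups, so its place among the features tested rests on the same libraries as these differences. Its receptor gene Gucy2c stayed under the filter, at 0.228 ± 0.110, 0.0338 ± 0.0104, 0.253 ± 0.0645 and 0.0643 ± 0.0403 FPKM in PRB P4, PRB oil, PRA P4 and PRA oil uteri. The soluble cyclase subunits, which sense nitric oxide, fell in both strains, Gucy1a3 by 0.40 in PRB and 0.61 in PRA, Gucy1a2 by 0.33 and 0.50, and Gucy1b3 by 0.29 and 0.35. With quantile normalization the calls of Gucy1a2 in PRB and of Gucy1b3 in both strains were lost.

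In the nitric oxide supply list, 3 of 5 genes were tested, and in each strain 2 rose and 1 fell. Nos3, the endothelial nitric oxide synthase, averaged 10.4 ± 1.17 FPKM in PRB P4 and 6.28 ± 0.331 in PRB oil, and 8.42 ± 1.32 in PRA P4 and 6.36 ± 0.864 in PRA oil uteri, a rise of 0.65 in PRB and 0.35 in PRA. Ddah1, which breaks down an inhibitor of nitric oxide synthases, rose by 0.51 in PRB and 0.60 in PRA uteri. Its relative Ddah2 fell by 0.47 in PRB and 0.41 in PRA uteri.

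Of 15 other genes with a phosphodiesterase symbol, subunits among them, 10 were tested. With P4, 4 of these rose and 5 fell in PRB uteri, while 3 rose and 4 fell in PRA uteri. Pde3b, an enzyme that cyclic GMP inhibits, averaged 15.9 ± 1.32 FPKM in PRB P4 and 6.57 ± 0.502 in PRB oil, and 19.0 ± 1.36 in PRA P4 and 7.50 ± 1.04 in PRA oil uteri, a rise of 1.16 in PRB and 1.24 in PRA. Its close relative Pde3a fell, by 0.86 in PRB and 0.73 in PRA uteri. Pde1b, a calcium-dependent enzyme, fell by 0.80 in PRB and 1.02 in PRA uteri, and its relative Pde1a rose by 0.49 in PRB and 0.54 in PRA uteri. In PRB uteri the Pde1a call was lost in 3 of 24 alternatives, among them those without PRB P4 replicate 3 or PRB oil replicate 4.
Pde2a, which cyclic GMP stimulates, fell by 0.47 in PRB and 0.80 in PRA uteri. Pde6h, a subunit known from cone photoreceptors, fell by 1.40 in PRA uteri, and in PRB uteri the fall of 0.42 was lost in 14 of 24 alternatives, among them the fits without any 1 of the 4 PRB P4 libraries. The difference of its responses, 0.98, did not pass (limma adjusted p = 0.0581). Pde6h averaged 0.991 FPKM in PRB P4 and 0.390 in PRA P4 uteri, and met the filter through the oil groups (1.67 in PRB and 2.73 in PRA). Pde9a, which is specific for cyclic GMP, was higher in PRB than in PRA uteri with P4, at 6.23 ± 0.974 against 4.02 ± 0.255 FPKM (log2 difference 0.52, limma adjusted p = 0.00669), in all 24 alternatives. Pde2a was also higher there, at 10.6 ± 0.649 against 8.54 ± 0.905 FPKM (limma adjusted p = 0.0499), a call lost in 18 of 24 alternatives, and kept without PRA P4 replicate 3, PRA oil replicate 1 or PRA oil replicate 4 and lost without any 1 of the other libraries.

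Of 19 kinase, substrate, channel and exporter genes 14 were tested, and 3 rose and 6 fell in PRB uteri while 4 rose and 8 fell in PRA uteri. Rgs2, a brake on G protein signalling that the kinase phosphorylates, averaged 258 ± 15.0 FPKM in PRB P4 and 99.9 ± 9.50 in PRB oil, and 202 ± 7.61 in PRA P4 and 101 ± 15.6 in PRA oil uteri. It rose by 1.37 in PRB (limma adjusted p = 1.11e-08) and 1.01 in PRA uteri (limma adjusted p = 2.37e-07), and with P4 was higher in PRB than in PRA uteri by 0.35 (limma adjusted p = 0.0223), a call lost without PRA P4 replicate 2, PRA P4 replicate 3 or PRB P4 replicate 4. The cyclic GMP exporters went apart, since Abcc4 rose by 0.96 in PRB and 0.68 in PRA and Abcc5 fell by 0.82 in PRB and 1.01 in PRA uteri.
Cngb1, a subunit of cyclic nucleotide-gated channels, fell by 1.02 in PRB and 1.43 in PRA uteri. It averaged 0.679 FPKM in PRB P4 and 0.329 in PRA P4 uteri, and met the filter through the oil groups (2.43 in PRB and 2.59 in PRA). Pln, the calcium pump regulator phospholamban, fell by 1.09 in PRA uteri (limma adjusted p = 0.00448) and differed by -0.18 in PRB uteri (limma adjusted p = 0.610), with 96.2 ± 46.0 FPKM in PRB P4 and 105 ± 41.4 in PRB oil, and 51.4 ± 8.36 in PRA P4 and 112 ± 23.7 in PRA oil uteri. Its responses were not shown to differ between the strains (difference 0.91, SE 0.42, limma adjusted p = 0.298). Trpc6, a cation channel, was lower in PRB than in PRA uteri with P4, at 0.626 ± 0.0806 against 1.24 ± 0.367 FPKM (log2 difference -0.45, limma adjusted p = 0.0271), a call lost without PRA P4 replicate 3, PRA P4 replicate 4, PRB P4 replicate 2 or PRB P4 replicate 3.

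**Figure D4:**
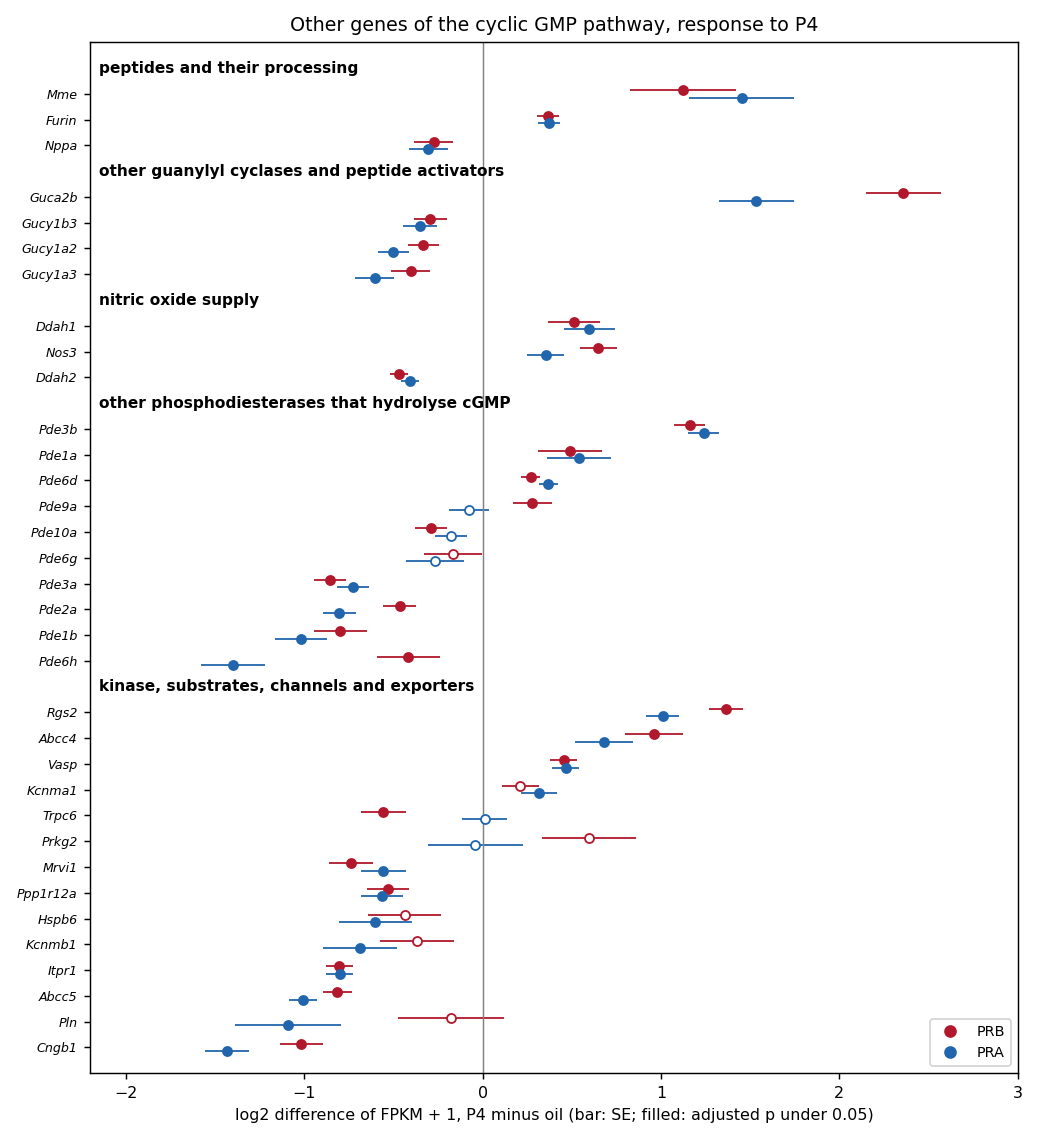
Log2 difference of FPKM + 1, P4 minus oil, for the 34 other pathway genes tested (rows, in 5 lists), in PRB and PRA uteri, with the SE as a bar and filled points where the adjusted p was under 0.05. Guca2b lies farthest to the right (2.36 in PRB, 1.54 in PRA) and Cngb1 farthest to the left (-1.02 in PRB, -1.43 in PRA).

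The levels of Nppc over the 16 libraries were nearest to those of Svil, Pole2, Dynll2, Wdr6 and Ttc19, out of 14195 features ranked by the root mean square difference of values standardised over the libraries (0.355, 0.360, 0.380, 0.410 and 0.411 SD units). Svil, which encodes the actin-binding protein supervillin, averaged 84.6 ± 4.47 FPKM in PRB P4, 80.8 ± 4.02 in PRB oil, 107.6 ± 5.88 in PRA P4 and 82.1 ± 6.01 in PRA oil uteri. Pole2, a subunit of DNA polymerase epsilon, averaged 1.79 ± 0.378, 1.92 ± 0.265, 4.25 ± 0.539 and 1.80 ± 0.724 FPKM in the same groups. Like Nppc, both were highest in the PRA P4 libraries. None of the other 6 genes was among the nearest to Nppc, the closest being Pde5a at 1.57 SD units.
For Gucy2g the nearest were Ccdc28a at 0.0808, Kiz at 0.0943 and Tpcn1 at 0.113 SD units, all low with P4 in both strains. The nearest to Npr1 were Fam118a, Olfml1 and Fndc1, to Npr2 Pagr1a, Sh3d21 and Prrt2, to Npr3 Ttc14, Ubash3b and Arid5b, to Prkg1 Atp6v0e2, Zfp784 and Itga7, and to Pde5a AK031097, Asap2 and Fam154b. The libraries share their group means, so these distances describe the pattern only.

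**Figure D5:**
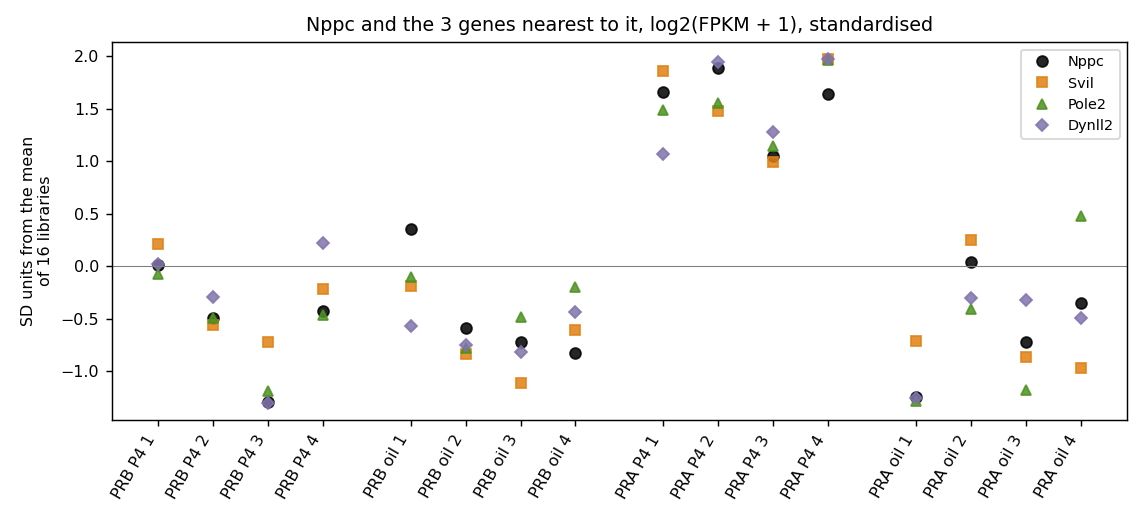
Level of Nppc, Svil, Pole2 and Dynll2 in each library as SD units from the mean of the 16 libraries (y axis, log2(FPKM + 1) standardised per gene), with the libraries ordered PRB P4, PRB oil, PRA P4 and PRA oil along the x axis. All 4 genes are highest in the PRA P4 libraries.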

How the data were processed

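Whole-uterus RNA-seq was deposited as 1 table of FPKM values per feature and library (16 libraries, 4 groups of 4). The submitters' processing notes list TopHat2 2.0.4, Cufflinks 2.0.2 and Cuffdiff, without role or order, and mm10 as the build. Annotation, strandedness and any scaling were not given in the sources used here. Deposited FPKM were used as they stand. Those that averaged 1 FPKM or more over the libraries (15408 of 31274 features) were tested on log2(FPKM + 1) with limma 3.58.1 in R 4.3.3, with all 16 libraries in 1 fit, 1 mean per group, an intensity trend and Benjamini-Hochberg adjustment over all features tested. The scripts were tested on simulated data. Intervals are 95% and come from the same fit. The filter took all 16 libraries together, so a gene can pass through the groups in which it is high. Among the genes that did were Nppc, Guca2b, Cngb1 and Pde6h. Nothing in the labels says whether the 4 replicates of a group were separate animals beyond the word bioreplicate, so p-values measure the spread between these libraries. The 24 alternatives changed the pseudocount, the filter, the scaling, the libraries in the fit, the trend or a replicate block, or left out 1 library. The genes and lists were chosen with earlier results of these data known. Named pathway genes were, per list and comparison, the called genes with the 4 largest differences, and levels of Gucy2c were added after its values were seen. Motifs were searched in RefSeq promoter windows of GRCm38.p6, which held all 7 genes.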

Additional observations from a re-analysis of the deposited data

Results flagged for a closer look

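The difference of the P4 responses of Nppc between the strains, PRB minus PRA, was -1.53 on the log2(FPKM + 1) scale (limma adjusted p = 0.0273), with Nppc higher in 4 of 4 PRA P4 libraries than in any PRA oil library and overlapping groups in PRB uteri. This call was lost in 6 of 23 alternatives, in which the adjusted p reached 0.0666.

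In 7 of 124 groups of 4 libraries looked at, 1 library lay far from the others, and chance alone flags about 1 in 20. Nppc had 1.85 FPKM in PRB oil replicate 1, against 0.626 to 0.826 in the other PRB oil libraries. Pgr had 78.5 FPKM in PRB P4 replicate 3, against 121 to 126 in the others of its group, and Trpc6 had 0.506 FPKM in the same library, against 0.657 to 0.676. Pde1b had 3.56 FPKM in PRB P4 replicate 1, against 2.15 to 2.35, and 7.24 FPKM in PRB oil replicate 2, against 4.55 to 4.62. Pde2a had 9.89 FPKM in PRA P4 replicate 3, against 7.97 to 8.26, and Cngb1 had 0.496 FPKM in PRA P4 replicate 1, against 0.264 to 0.281.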

How the results depend on the processing

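Over 24 alternatives, 803 of 833 single values of the 7 genes kept their direction where called and their side of the threshold, 14 passed newly, 16 no longer passed and none reversed. The counts of called genes with P4 in PRB (5) and PRA uteri (7) and with oil between the strains (0) did not change. Between PRB and PRA uteri with P4, the count of 2 became 4 with a pseudocount of 0.1, 1 without a filter and 4 with the replicate block (Npr3 at a limma adjusted p of 0.0451 and Gucy2g at 0.0219), and lay between 1 and 4 when 1 library was left out (1 without PRA oil replicate 3, PRA P4 replicate 1, 2 or 3, PRB oil replicate 1 or PRB P4 replicate 2, and 4 without PRA oil replicate 4 or PRB P4 replicate 3). For the difference of the responses, the count of 1 became 0 with a pseudocount of 0.1 and lay between 0 and 1 when 1 library was left out. The fits with 1 library left out also rest on fewer libraries, and the cause of these moves was not tested. Over all features, 2471 passed between PRB and PRA uteri with P4, against 1640 with the libraries of the comparison alone, 1548 without PRA P4 replicate 2 and 1412 without PRA P4 replicate 4. With oil 18 passed, against 6 with those libraries alone, 33 without a filter and 8 to 29 with 1 library left out, and for the difference of the responses 352 passed, against 155 to 494. Of 24 same-numbered pairs of libraries, 6 correlated above 0.1 (-0.229 to 0.312). No pairs with different numbers were looked at beside them, so these values cannot tell whether replicate numbers pair the libraries. The replicate block moved no other count of the 7 genes. Nppc rests on few fragments (about 19 in the lowest library, a counting error of about 22.9%), which limits small differences of this gene.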

Other observations

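Guca2a, the gene of the peptide guanylin, missed the filter at a mean of 0.874 FPKM and is named here after its values were seen. It had 0.702, 3.46, 0.170 and 4.22 FPKM in the PRB P4 libraries, against 0.0395, 0.0398, 0 and 0.0778 FPKM in the PRB oil libraries, and 0.413, 0.840, 2.47 and 1.44 FPKM in the PRA P4 libraries, against 0, 0, 0.0400 and 0.0768 FPKM in the PRA oil libraries. Every P4 library was above every oil library, and no test was made.

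Some libraries were low for several of the 7 genes at a time. PRB P4 replicate 3 was the lowest of its group for 6 of the 7 (all but Npr3), PRB oil replicate 4 for 6 (all but Npr2), and PRA P4 replicate 3 and PRA oil replicate 4 for 4 each.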
